A study of Mus musculus with 3 samples.

Results

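Chromatin accessibility after 7 days in 20 mM sodium lactate was compared with vehicle in mouse prostate organoids, gene by gene. Organoids are small epithelial structures grown in a gel. These were grown from primary basal epithelial cells of wildtype mouse prostate, and for such primary cells the study's methods give male C57BL/6J mice aged 3 to 6 months, without the number of mice behind these libraries. The lactate group and the vehicle group each held 1 library, and a further library of organoids kept in 10 µM UK5099, an inhibitor of the mitochondrial pyruvate carrier, served only as a measurement beside them. ATAC-seq, in which a transposase cuts and tags open DNA, gave each gene an average peak height, that is, the stacked read coverage at the top of each accessible region averaged over the regions assigned to that gene. The members were the genes with a height above 0 in both libraries, which were 18890 of the 18890 genes in the table. For each gene the lactate height was divided by the vehicle height, and this ratio was divided by the median ratio of all genes, so that a scaled ratio of 1 stands for the median gene. With 1 library a side there is no replicate check, no test and no p-value. Parentheses after a scaled ratio hold its 95% interval, computed by the exact Clopper-Pearson method from the reads stacked at the gene, and it covers counting error only.

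Lactate is made from pyruvate by lactate dehydrogenase and crosses membranes through monocarboxylate transporters together with a proton. In many cell types it is taken up as a fuel, acts on a surface receptor, and can influence the acetylation and lactylation of histones. In the prostate, basal cells lie on the basement membrane, carry the keratins Krt5 and Krt14 and the transcription factor p63, and can give rise to luminal cells, which carry Krt8 and Krt18 and secrete. The comparison asks what added lactate does to the accessibility of genes in such cells, and which groups of genes stand away from the median gene.

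Heights were broadly higher in the lactate library before scaling. The median height was 60.3 in lactate and 51.3 in vehicle organoids, the median of the gene ratios was 1.18, and 83.1% of genes were above vehicle on the deposited scale. The lactate library was also the deeper one. Its height of 1 stacked read was 0.471 units against 0.575 in vehicle, which gives a depth 1.22 times that of vehicle if the deposited scaling equalised depth, and the typical gene was read with 330 stacked reads in lactate and 233 in vehicle (medians). A broad change in accessibility, the depth and the scaling cannot be told apart here, so all further ratios are relative to the median gene.

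After scaling, most genes lay close to one another. The quartiles of the scaled ratio were 0.899 and 1.1, and the SD of its log2 value over all genes was 0.30. At a scaled ratio of 1.5 or more there were 331 genes, 1.75% of all genes, and at the inverse limit of 0.667 or less there were 735 genes, 3.89%. A closer lower limit of 0.800 and its inverse were also used. Past these closer limits, 1388 genes (7.35%) were higher and 2096 genes (11.1%) were lower. The lower tail was made largely of weak genes. Among the 1379 genes with a mean height of the 3 libraries under 20, the median scaled ratio was 0.883, 8.99% were at 1.5 or more and 22.4% at 0.667 or less. Among the 3102 genes at 100 or more the median was 1.01, with 2 genes past the upper and 5 past the lower limit. Above a mean height of 36, the minimum used for naming genes, 14198 genes remained, of which 96 were at 1.5 or more (0.676%) and 159 at 0.667 or less (1.12%). The spread thus narrowed with height in this pair of libraries, and height is given beside each group of genes that follows. The mean height includes both compared libraries, so a gene can reach 36 only through the library in which it is high.

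**Figure D1:**
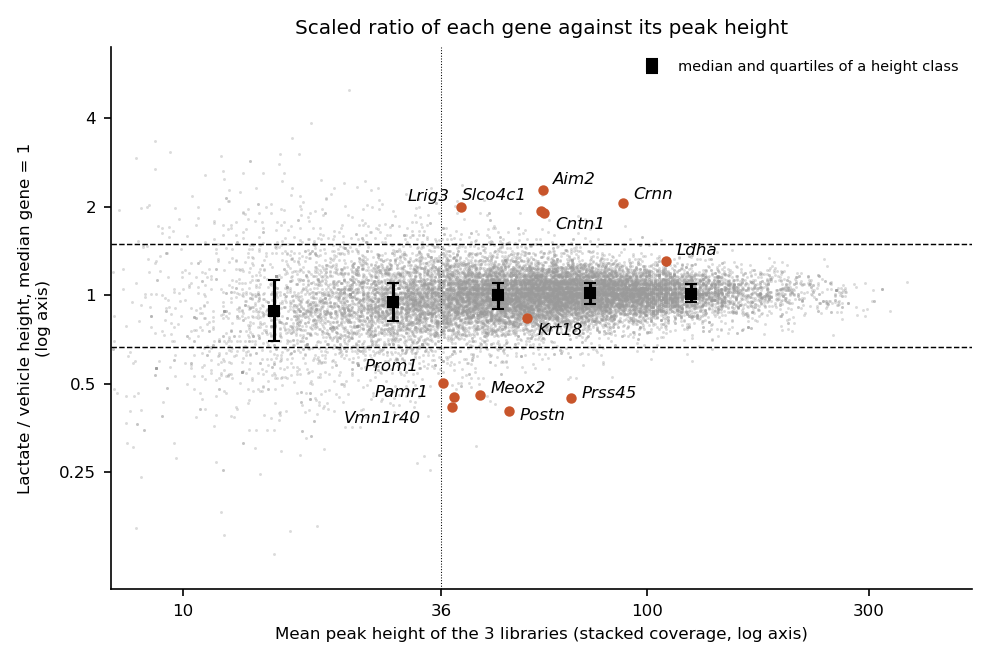
Scaled ratio of lactate over vehicle height (log axis, median gene at 1) against the mean height of the 3 libraries (log axis) for all 18890 genes in grey. Black squares and bars are the median and quartiles of 5 height classes, dashed lines the limits of 1.5 and 0.667, the dotted line a mean height of 36, and orange points 13 genes described in the text. The cloud is widest on the left, where its median is 0.883, and narrows to a median of 1.01 on the right.

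Genes read at a single promoter region differed little from genes read farther away once height was considered. A gene can be assigned 1 or more merged regions, and for the 5131 genes with 1 region the ratio belongs to that region alone. In the 2734 genes whose called peak lay within 1000 bases of the gene start the median scaled ratio was 0.998, with 2.01% at 1.5 or more and 4.10% at 0.667 or less. In the 679 genes with the peak 1000 to 5000 bases away it was 0.955, and in the 1440 genes beyond 5000 bases it was 0.949, with 6.04% at 1.5 or more and 12.5% at 0.667 or less. These distal genes were also weaker, with a median mean height of 35 beyond 5000 bases against 73.4 at promoters. Among genes of mean height 36 or more, the medians were 1.01 at promoters, 0.973 at 1000 to 5000 bases and 0.996 beyond 5000 bases, and 3.43% of the last class were at 1.5 or more against 0.968% of the promoter class. In the height class from 60 to 100, 2.56% of distal and 0.420% of promoter genes were at 1.5 or more, and 3.85% and 1.82% were at 0.667 or less. The distal classes were thus wider in both directions at like heights, with medians close together.

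Genes with many regions had a slightly higher ratio and a narrower spread. The median was 1.0 in 10388 genes with 2 to 4 regions, 1.02 in 2748 genes with 5 to 9 and 1.04 in 623 genes with 10 or more, and among the last none was at 1.5 or more and 4 were at 0.667 or less. At a mean height of 36 or more it was still 1.04 in 555 genes with 10 or more regions. At the other end, 278 single-region genes had a peak called in neither library, a median height of 11.3 in lactate and 10.9 in vehicle, and a median scaled ratio of 0.852.

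**Figure D2:**
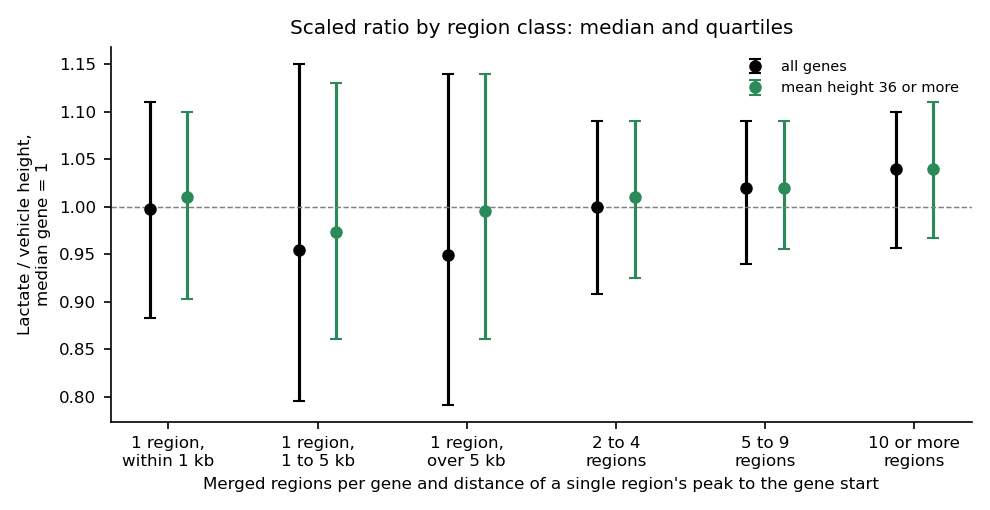
Scaled ratio (median gene at 1) by the number of merged regions of a gene and, for genes with 1 region, by the distance of its called peak to the gene start. Points are medians and bars run between the quartiles, in black for all genes and in green for genes of mean height 36 or more. The distal single-region classes have the widest bars, and the median reaches 1.04 in genes with 10 or more regions.

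Peak calls differed mostly away from gene starts. The table lists 38579 called peaks in lactate and 32407 in vehicle. Of the lactate peaks, 23.1% had no vehicle peak within 500 bases, and of the vehicle peaks 10.1% had no lactate peak. Under 500 bases from a gene start, 7.65% of 10851 lactate peaks and 3.42% of 10175 vehicle peaks were without a partner. Between 500 and 1000 bases these shares were 35.5% and 13.4%, and at 10 kb or more, where 41.7% of lactate and 41.0% of vehicle peaks lay, they were 28.1% and 14.2%. Peaks called only in lactate therefore outnumbered those called only in vehicle at each distance, in the library that was also deeper, and the part of depth in this was not tested. By gene, 17499 genes had a called peak in both libraries, 690 in lactate only, 392 in vehicle only and 309 in neither.

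**Figure D3:**
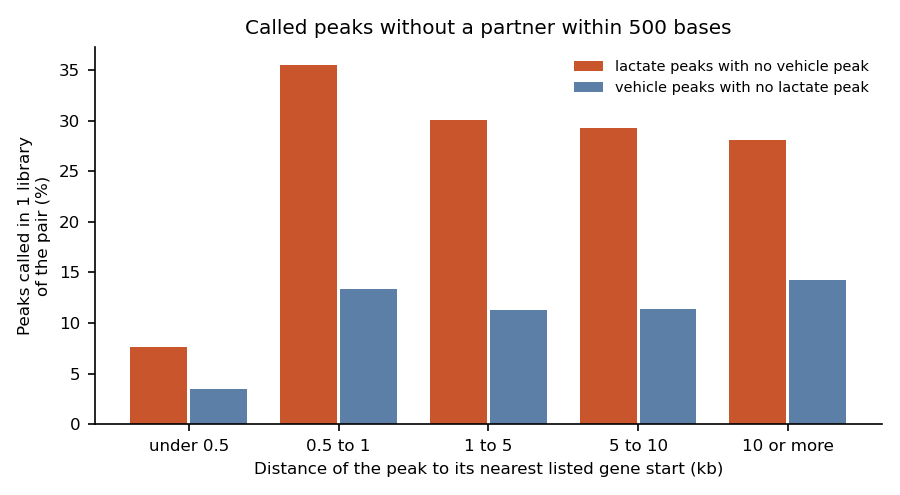
Share of called peaks without a called peak of the other library within 500 bases (%), by distance to the nearest listed gene start, for lactate (orange, left) and vehicle (blue, right). The share is lowest under 0.5 kb, at 7.65% of lactate and 3.42% of vehicle peaks, and the lactate bar is the higher one in all 5 classes.

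The DNA under the unshared peaks differed in how often it held short motifs. A window of 200 bases round each called peak was read from the mouse genome and searched on both strands for 16 strings. Given first are the AP-1 string TGANTCA, the Runx string TGTGGTTT, the Hox string CCAATAAA and the grainyhead string AACNNGTT. Some of the other strings differed between the sets as well. AP-1 factors such as Fos and Jun bind enhancers in epithelial cells, Runx factors act in many lineages, and Hoxb13 is a prostate luminal factor. More than 1000 bases from a gene start, TGANTCA stood in 25.4% (24.4 to 26.4) of 7438 lactate-only windows, in 35.2% (33.5 to 37.1) of 2755 vehicle-only windows and in 36.5% (35.8 to 37.2) of 18467 windows called in both, where parentheses give 95% exact binomial intervals for counting error only. Over all distal windows the share was 33.5%. TGTGGTTT stood in 1.88% (1.59 to 2.22) of lactate-only and 4.57% (3.82 to 5.42) of vehicle-only windows, against 2.79% of all distal windows. CCAATAAA stood in 0.901% (0.699 to 1.14) of lactate-only and 0.871% (0.559 to 1.29) of vehicle-only windows, whose intervals overlap, and in 0.761% of all. AACNNGTT stood in 4.97% (4.49 to 5.49) of lactate-only windows, 4.73% (4.43 to 5.05) of windows called in both and 4.67% of all. It was less frequent in vehicle-only windows, at 3.45% (2.80 to 4.20). Lactate-only peaks come from the deeper library, so peak strength may differ between these sets, and it was not matched.

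The same strings were counted at single-region genes of mean height 36 or more. In 188 of 810 distal windows that held TGANTCA, 13.8% of genes were past the closer upper limit and 25.5% past the closer lower limit, against 12.7% and 14.5% of the 622 genes without it. In 89 of 1923 promoter windows with TGANTCA the shares were 11.2% and 15.7%, against 6.16% and 8.23% without it. Windows with the string also had the lower median mean height, 57.8 against 70.1 at distal regions and 77.1 against 90.3 at promoters, and the part of height in these shares was not tested.

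Among genes with 1 promoter region, the highest scaled ratios belonged to genes of different function. *Slco4c1*, an organic anion transporter, had a height of 93.3 in lactate and 40.8 in vehicle organoids, a scaled ratio of 1.94 (1.48 to 2.59). *Tigd3*, a gene derived from a transposase, followed at 60.8 and 27.0 (1.91, 1.36 to 2.73), and *Atf7ip2*, a relative of a chromatin-silencing cofactor, at 79.6 and 35.6 (1.90, 1.41 to 2.59). *Defb10*, a beta-defensin, had heights of 60.8 and 27.6, and *Ppp3cc*, a catalytic subunit of the phosphatase calcineurin, 58.0 and 27.0, with scaled ratios of 1.87 and 1.82. All 5 had a called peak in both libraries. In the UK5099 library their heights ran between 36 in *Ppp3cc* and 47.0 in *Defb10*, below lactate in each case. The choice of genes by a high ratio itself favours high lactate heights, so nothing is concluded from this order.

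Among genes with 1 region farther away, *Aim2* stood highest of the named genes. It encodes a sensor of DNA in the cytoplasm that assembles an inflammasome. Its height was 92.3 in lactate, 34.5 in vehicle and 52.0 in UK5099 organoids, a scaled ratio of 2.28 (1.70 to 3.09) at a peak 1596 bases before the gene start. *Atoh1*, a transcription factor of secretory and sensory lineages, had heights of 68.8 in lactate and 34.5 in vehicle, a scaled ratio of 1.70, at a peak 1146 bases before its start. The histone gene *Hist1h2ap* stood at 52.8 and 26.4, with 30.0 in UK5099, and reached a mean height of 36 only through its lactate height. It shares its region and its values with *Hist1h2br* and *Hist1h4n*. *Ttbk1* and *Shc2*, at 1.69 and 1.63, each shared a region with a neighbour, *Dnph1* and *C2cd4c*.

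Among genes with more than 1 region, *Crnn*, which encodes the squamous cell protein cornulin, led with 97.5 in lactate and 40.2 in vehicle (2.06, 1.70 to 2.52), and it was higher still in UK5099 at 128. *Lrig3*, a membrane protein of the family that restrains growth factor receptors, followed with 51.0 and 21.7 (2.0, 1.66 to 2.42). The olfactory receptor gene *Olfr543*, which shares its values with *Olfr544*, stood at 1.91 (1.5 to 2.45), the contactin gene *Cntn1* at 1.91 (1.64 to 2.22) and the glycerol channel gene *Aqp7* at 1.70 (1.39 to 2.1). In *Cntn1* the called peak nearest to the gene start lay 222275 bases from it. Vehicle heights of the 15 genes named as highest lay between 21.7 and 40.8, all below the median vehicle height of 51.3. A choice by high ratio itself favours low vehicle heights.

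The lowest named genes came from all 3 region classes. They are grouped by kind and not by ratio. *Vmn1r40*, *Prss45* and *Kcnmb3*, given in the next paragraph, had lower ratios than *Tnn*, given here. *Postn*, which encodes the matrix protein periostin, had a height of 41.9 in lactate, 88.5 in vehicle and 21 in UK5099 organoids, a scaled ratio of 0.403 (0.307 to 0.526). Its single peak, 2483 bases before the gene start, was called in vehicle and not in lactate. *Meox2*, a mesodermal homeobox factor, stood at 38.2 in lactate, 70.7 in vehicle and 22.0 in UK5099 (0.459, 0.342 to 0.613). *Pamr1*, a secreted protein linked to muscle regeneration, had 30.3, 57.3 and 27.3 in the same order, and *Cpxm2*, a carboxypeptidase-like matrix protein, had 37.0, 69.3 and 29.5. Their scaled ratios were 0.450 (0.374 to 0.541) and 0.454 (0.369 to 0.558). *Tnn*, which encodes tenascin N, stood at 0.480 (0.375 to 0.614) with 26.6 in lactate and 47.1 in vehicle. *Podnl1*, a small leucine-rich matrix protein, stood at 27.3 and 54.6 (0.426, 0.302 to 0.596) at its promoter, but had 59.0 in UK5099.

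The remaining low genes ranged from a surface protein to receptors and channels. *Prom1*, which encodes CD133, a surface protein of luminal and progenitor cells, had a promoter height of 30.2 in lactate, 51.1 in vehicle and 28.0 in UK5099, a scaled ratio of 0.501 (0.358 to 0.699) at a mean height of 36.4, just inside the minimum. Its peak just before the gene start was called in both libraries, and a further peak 648 bases into the gene was called in lactate only. *Prom1* reached a mean height of 36 only through its vehicle height. So did *Pamr1* above and *Vmn1r40* below, whose lactate and UK5099 heights were under 36, at 29.7 and 24.0 for *Vmn1r40*. This can hold for other low genes too. *Mia2* at 0.486, *Tubb2b*, a neuronal tubulin, at 0.521 and *Mctp1*, a membrane protein with calcium-binding domains, at 0.523 were the remaining promoter genes. Away from promoters, the vomeronasal receptor gene *Vmn1r40* stood at 0.418, the serine protease gene *Prss45*, in one region with *Prss46*, at 0.448 and the potassium channel subunit gene *Kcnmb3* at 0.471. *Ifi205*, an interferon-inducible gene of the same protein family and chromosome as *Aim2*, had 34.4 in lactate and 58.9 in vehicle (0.497, 0.399 to 0.617), and the kinase gene *Blk* had 30.3 and 51.1.

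**Figure D4:**
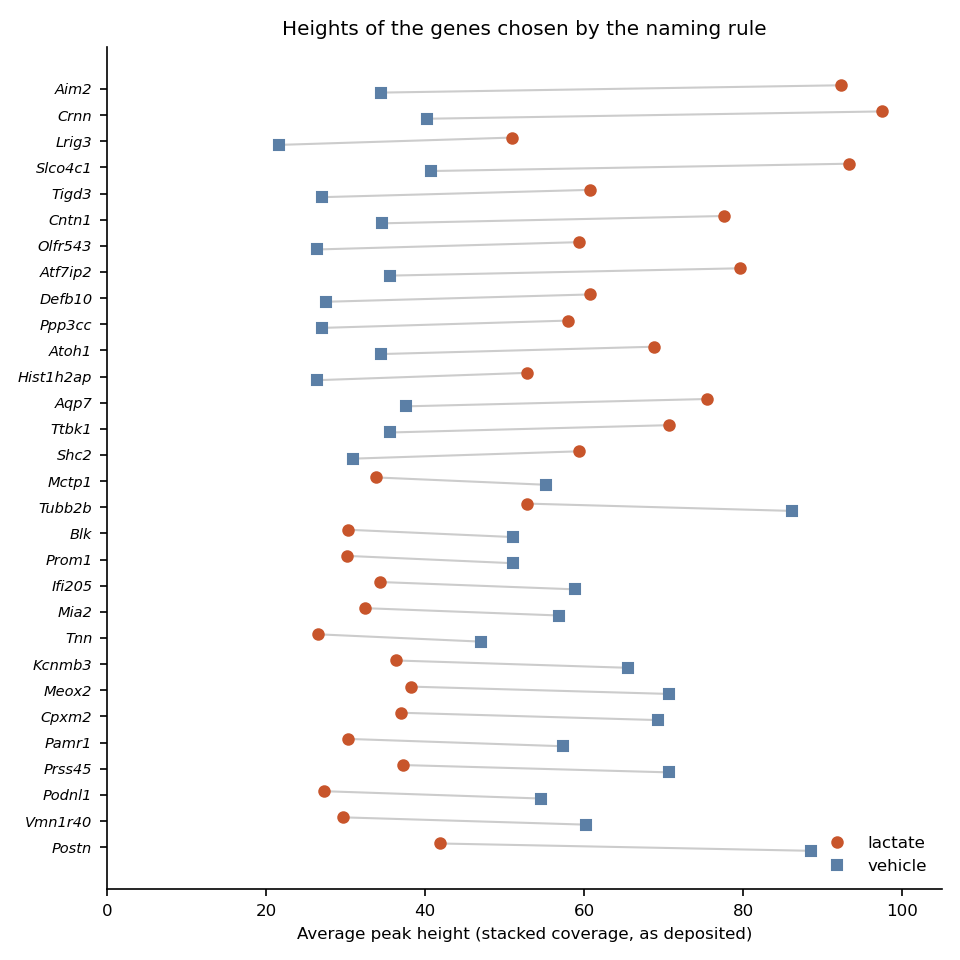
Average peak height as deposited (linear axis, stacked coverage) of the 30 genes chosen by the naming rule, in lactate (orange circle) and vehicle (blue square), ordered by scaled ratio with *Aim2* at the top and *Postn* at the bottom. The 15 upper genes lie to the right of vehicle in lactate and the 15 lower genes to the left, with the median of all genes at 1.18 times vehicle on this scale.

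The windows of 200 bases at the peaks of 6 genes that carry these differences are shown from the gene's own strand of the build GRCm38.p6, with any of the 16 searched strings in capitals. *Slco4c1* and *Aim2* were high, *Prom1*, *Postn* and *Meox2* were low, and *Ldha*, a lactate dehydrogenase gene described later, was high. *Ldha* has further called peaks, so its ratio does not belong to the window shown alone.
Slco4c1, chr1:96872172-96872371, minus strand, just before the gene start: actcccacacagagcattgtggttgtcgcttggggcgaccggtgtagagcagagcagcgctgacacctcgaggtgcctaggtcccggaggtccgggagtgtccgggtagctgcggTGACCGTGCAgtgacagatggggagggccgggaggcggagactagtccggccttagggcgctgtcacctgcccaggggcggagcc
Aim2, chr1:173418908-173419107, plus strand, round the peak before the gene start: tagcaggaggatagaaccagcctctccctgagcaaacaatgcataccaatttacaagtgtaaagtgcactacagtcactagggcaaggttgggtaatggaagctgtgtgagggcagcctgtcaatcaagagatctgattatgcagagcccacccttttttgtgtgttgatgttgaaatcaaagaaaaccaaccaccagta
Ldha, chr7:46845604-46845803, plus strand, just before the gene start: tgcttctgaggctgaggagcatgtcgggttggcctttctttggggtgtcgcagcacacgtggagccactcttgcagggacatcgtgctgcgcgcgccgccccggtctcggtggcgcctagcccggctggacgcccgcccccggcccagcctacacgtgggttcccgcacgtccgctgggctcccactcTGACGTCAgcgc
Prom1, chr5:44101737-44101936, minus strand, just before the gene start: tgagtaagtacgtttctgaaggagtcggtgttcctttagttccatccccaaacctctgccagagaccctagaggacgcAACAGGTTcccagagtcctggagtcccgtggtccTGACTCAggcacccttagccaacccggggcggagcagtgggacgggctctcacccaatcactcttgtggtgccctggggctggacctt
Postn, chr3:54358524-54358723, plus strand, round the peak before the gene start: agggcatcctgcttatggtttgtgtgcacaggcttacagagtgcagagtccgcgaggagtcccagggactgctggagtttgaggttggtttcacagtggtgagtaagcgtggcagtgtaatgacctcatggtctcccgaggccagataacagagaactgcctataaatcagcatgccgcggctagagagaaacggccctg
Meox2, chr12:37142172-37142371, plus strand, round the peak inside the gene: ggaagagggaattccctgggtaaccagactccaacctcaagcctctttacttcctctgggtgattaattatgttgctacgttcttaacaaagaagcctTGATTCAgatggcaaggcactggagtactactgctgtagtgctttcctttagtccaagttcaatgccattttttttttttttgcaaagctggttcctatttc

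The sequences differ in base composition as well as in ratio. The *Ldha* and *Slco4c1* windows are rich in G and C, at 70.0% and 67.5%, while those of *Aim2* and *Meox2* hold 45% and 42.0%. The *Prom1* window holds an AP-1 string, present in 6.12% of all promoter windows, and a grainyhead string (AACNNGTT), present in 1.99%. The *Ldha* window holds the cAMP response element TGACGTCA (2.44% of promoter windows), the *Slco4c1* window an Nrf2 string, which can overlap an AP-1 string (2.15%), and the *Meox2* window an AP-1 string. None of the 16 strings is in the *Aim2* and *Postn* windows, which says only that these letters are not there. Across single-region genes of mean height 36 or more, the ratio varied little with base composition at promoters. At distal regions it varied more, without a steady order. Promoter windows with 65% or more G and C had a median of 1.01 over 973 genes and those with 45% to 50% had 0.970 over 52 genes. At distal regions the medians were 1.01 over 198 genes and 0.972 over 125 genes in the same order. Distal medians were 0.904 over 50 genes at 40% to 45%, 1.03 over 149 genes at 50% to 55% and 0.948 over 147 genes at 55% to 60%.

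Most basal and most luminal markers lay above the median gene, with the higher median in basal markers. Here and in the groups that follow, the genes named as highest or lowest are so among members of mean height 36 or more, and weaker members can lie beyond them. Of 22 basal markers with a row in the table, 17 were above the median gene, with a median of 1.09 and a median mean height of 61.0. Most of them have 5 or more regions, and the medians over all genes were 1.02 with 5 to 9 regions and 1.04 with 10 or more. The caveolin gene *Cav1* was highest at 1.5 (1.34 to 1.68), with 92.4 in lactate and 52.4 in vehicle, followed by *Ngfr*, the nerve growth factor receptor of basal cells, at 1.29 (1.13 to 1.47). *Lama3* at 0.969 and *Fermt1*, which encodes the adhesion protein kindlin-1, at 0.876 were lowest among members of that height. The defining basal genes stayed near the group, with *Krt5* at 1.08 (0.978 to 1.2), *Krt14* at 1.11 and *Trp63*, the gene of p63, at 1.05 (0.958 to 1.16) at a mean height of 35.4, just under the minimum of 36.

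Of 20 luminal markers 14 were above the median gene, and their median was 1.03. *Fxyd3* and *Krt19* were highest at 1.16 and 1.15, and *Krt18* and *Prom1* lowest at 0.838 (0.728 to 0.965) and 0.501. *Krt8*, the partner of *Krt18*, stood at 0.911 (0.829 to 1.0), with 96.8 in lactate and 90.3 in vehicle. For *Krt18* the heights were 69.1 in lactate, 70.1 in vehicle and 26.3 in UK5099, so the library that stood apart at this gene was UK5099. Among the luminal and lineage factors, *Foxa1* stood at 1.1 (0.990 to 1.22), *Hoxb13* at 0.919 (0.796 to 1.06), *Sox9* at 1.13 (0.973 to 1.32) and *Sox2* at 0.933 (0.805 to 1.08), and all 4 intervals include the median gene. *Psca*, a surface antigen of luminal progenitors, stood at 0.964 (0.844 to 1.1).

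Progenitor and secretory genes were also slightly above 1. The 15 luminal progenitor markers had a median of 1.1, which was 1.03 over the 12 members of mean height 36 or more. Of these 12, *Ltf* and *Wfdc2*, both of secreted proteins, were highest at 1.21 and 1.19, and *Ppp1r1b*, a phosphatase inhibitor, was lowest at 0.806. Of 17 secretory and androgen response genes, 13 were above the median gene with a median of 1.1, and none passed either of the closer limits. *Acsl3*, an acyl-CoA synthetase, stood at 1.24 (1.12 to 1.37), and *Steap4*, a metal reductase, was lowest at 0.847 (0.721 to 0.996). Of 31 lineage transcription factor genes 21 were above 1, with a median of 1.02. Among the 23 of mean height 36 or more, *Tfap2c* at 1.23 and *Klf5* at 1.22 were highest, and *Gata2* at 0.848 and *Zeb2*, a repressor of epithelial genes, at 0.492 (0.359 to 0.672) were lowest.

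Keratin genes were spread widely, with more of them high than low. Of 46 genes, 32 were above the median gene and the median was 1.1. Past the closer upper limit there were 12 genes (26.1%, against 7.35% of all genes), and past the lower 4 genes (8.70%, against 11.1%). In the height class from 36 to 60, which holds the group's median mean height of 45.8, these shares over all genes were 8.06% and 9.49%. *Krt77* and *Krt24*, keratins of differentiated epidermis, were highest at a mean height of 36 or more, at 1.68 (1.39 to 2.05) and 1.66 (1.29 to 2.14), with lactate heights of 85.7 and 50.4 and vehicle heights of 43.4 and 25.9. *Krt1* and *Krt10*, the suprabasal pair of skin, named here after their values were seen, stood at 1.52 (1.29 to 1.80) and 1.36 (0.991 to 1.88). *Krt18* and the hair keratin gene *Krt39* at 0.799 were lowest at that height. Neighbouring keratin genes lie in 2 clusters and can share regions.

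Cornified envelope genes, whose products form the outer shell of dead squamous cells, had a median of 1.1 over 29 genes at a median mean height of 36.9, and of 1.08 over the 15 of mean height 36 or more. Of the 29, 11 were past the closer upper limit (37.9%, against 7.35% of all genes) and 1 past the lower (3.45%, against 11.1%). Among the 15, *Krtdap* followed *Crnn* at 1.45 (1.19 to 1.77), with 75.9 in lactate and 44.5 in vehicle, and *Lce1a1* and *Cdsn* were lowest at 0.854 and 0.837. In UK5099, set against the same vehicle library, *Krtdap* had a height of 88.0. Keratin-associated protein genes, which belong to hair, stood lower. Of 18 genes 3 were above the median gene, their median was 0.821 at a median mean height of 25.8, and 13 of the 18 share their values with a neighbour.

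Genes of adhesion to the basement membrane and between cells stood near or above 1. The 9 hemidesmosome and laminin 5 genes had a median of 1.09, with *Col17a1*, the hemidesmosome collagen, at 1.23 (1.1 to 1.39), *Lamb3* at 1.1, *Lama3* at 0.969 and *Plec* at 0.965. The 14 desmosome genes had a median of 1.01, and *Perp*, a desmosome gene that p53 and p63 regulate, was highest at 1.40 (1.23 to 1.59), with *Dsp* at 1.22 (1.13 to 1.31) next, and *Dsg2* and *Pkp2* at 0.960 and 0.831 lowest of the 10 members of mean height 36 or more. Tight junction genes had a median of 1.0 over 23 genes, and the claudin genes *Cldn8* at 1.31 and *Cldn15* at 0.679 (0.540 to 0.855) marked its ends. Cadherin genes had 3 of 11 above 1 and a median of 0.901, although *Cdh1*, the epithelial cadherin, was highest at 1.1 (1.03 to 1.17).

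Markers of stromal cells were lower. Of 18 stromal and smooth muscle markers 11 had a row, and *Col1a2*, *Col3a1*, *Des*, *Dcn*, *Lum*, *Fap* and *Fgf10* had none. Of the 11, 2 were above the median gene and their median was 0.806. Their summed height was 492 in lactate and 514 in vehicle, a scaled ratio of 0.814, and 492 in UK5099. *Postn* alone held 41.9 of the lactate sum and 88.5 of the vehicle sum. The intervals of 2 of the 11 genes lay below the median gene and that of 1 gene above it. Among the 6 of mean height 36 or more, *Cnn1*, a smooth muscle calponin, was highest at 1.28 (1.07 to 1.53), *Vim*, the gene of vimentin, stood at 0.787 (0.646 to 0.959) and *Postn* was lowest. Collagen genes had a median of 0.878 over 35 genes with 11 past the closer lower limit (31.4%, against 11.1% of all genes and 22.5% of genes in the height class from 20 to 36, which holds the group) and 3 past the upper (8.57%, against 7.35%). The collagen median was 0.980 over the 16 of mean height 36 or more, among which *Col27a1* was lowest at 0.724 (0.657 to 0.797) and *Col28a1* highest at 1.43 (1.21 to 1.69). Genes of the epithelial-mesenchymal transition had a median of 0.952 over 19 genes, but 1.02 over the 14 of mean height 36 or more. *Tgfb1* at 1.2 and *Axl* at 1.16 stood above, and *Fn1*, the gene of fibronectin, at 0.629 (0.507 to 0.780) and *Zeb2* below. Fewer cells of a type and less open chromatin per cell cannot be told apart in such bulk samples, and the part of cell composition in these ratios was not tested.

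Markers of other cell types had medians from 0.890 to 1.01. The 13 endothelial markers with a row had a median of 0.890, but 1.04 over the 6 of mean height 36 or more, with *Vwf* at 1.22 and *Esam* at 0.820, and summed to 448 in lactate and 429 in vehicle. The 10 immune markers had a median of 0.991, which was 1.03 over the 7 of mean height 36 or more, sums of 728 in lactate and 634 in vehicle, and no row for *Cd3e*, *Cd8a* or *Ms4a1*. The 11 neuroendocrine markers had a median of 0.922 at a median height of 27.8 in lactate and 25.3 in vehicle. The 5 seminal vesicle and urothelial markers with a row, all uroplakins, had a median of 1.01, with *Upk1b* highest at 1.26 and *Upk2* lowest at 0.740, and *Svs2* and *Pate4* of seminal vesicle had no row.

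Genes of lactate handling included several of the higher ratios. Of 21 lactate dehydrogenase, monocarboxylate transporter and partner genes, 14 were above the median gene, 7 were past the closer upper limit (33.3%, against 7.35% of all genes) and 1 was past the lower (4.76%, against 11.1%). Their median was 1.12, and 1.02 over the 14 members of mean height 36 or more. *Ldha*, which encodes the muscle-type subunit that makes lactate from pyruvate, had 129 in lactate and 83.9 in vehicle, a scaled ratio of 1.31 (1.14 to 1.52), and 116 in UK5099. *Ldhb*, the heart-type subunit that favours the reverse reaction, stood at 72.1 and 47.7 (1.29, 0.978 to 1.70), from a single promoter region. *Gpr81*, an older symbol of the lactate receptor gene *Hcar1*, had 45.7 in lactate, 24.1 in vehicle and 66.0 in UK5099 (1.61, 1.11 to 2.37), but its only region lies downstream of the gene, 10196 bases from its start.

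The transporter genes differed among themselves. *Slc16a1*, the gene of the widely expressed transporter MCT1, stood at 1.34 (1.08 to 1.66), with 39.1 in lactate and 24.9 in vehicle at a mean height of 32.7, under the minimum. *Slc16a3*, the gene of the exporter MCT4, stood at 1.18 (1.01 to 1.38). *Slc16a7*, the gene of MCT2, was at 0.904 (0.762 to 1.07), and *Slc16a10*, an aromatic amino acid transporter of the same family, and *Slc5a8*, a sodium-coupled lactate transporter, were the lowest of mean height 36 or more, at 0.860 (0.759 to 0.976) and 0.830 (0.703 to 0.981).

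Genes of pyruvate entry and oxidation stood close to the median gene. The 20 genes of the mitochondrial pyruvate carrier, pyruvate dehydrogenase, its kinases and the alanine aminotransferases had a median of 1.06, with 14 above 1. *Mpc1* was at 1.06 (0.919 to 1.21) and *Mpc2* at 0.914 (0.806 to 1.04), so both subunits of the carrier include the median gene in their intervals. The alanine aminotransferase gene *Gpt* was highest at 1.29 (1.07 to 1.55) and *Dlat*, a core subunit of pyruvate dehydrogenase, lowest at 0.837. Glycolysis and glucose uptake genes had 17 of 24 above 1 and a median of 1.06, with *Pfkfb1* at 1.29 and *Pgam1* at 1.26 (1.07 to 1.5) highest and *Pfkp* at 0.860 (0.772 to 0.959) among the lower members. Citric acid cycle genes had a median of 1.01 over 21 genes, respiratory chain and ATP synthase genes 0.984 over 84 and fatty acid and cholesterol synthesis genes 1.04 over 29.

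Ion transport and antioxidant genes held some of the more even shifts. Of 37 genes of sodium, proton and bicarbonate transport 27 were above 1, with a median of 1.09. Among the 26 of mean height 36 or more, *Car13*, a carbonic anhydrase, was near the top, with an interval of 1.08 to 1.44. The acid-sensing receptor gene *Gpr65* was lowest at 0.614 (0.509 to 0.741), and the anion exchanger gene *Slc4a1* stood at 0.773. Osmotic response genes had a median of 0.985 over 21 genes, with *Aqp7* and *Aqp3* at 1.70 and 1.23 highest at mean height 36 or more and *Slc6a6*, a taurine transporter, and *Lrrc8c* at 0.843 and 0.818 lowest. Nrf2 antioxidant response genes had 17 of 27 above 1 and a median of 1.07, led at mean height 36 or more by *Nqo1*, a quinone reductase, at 1.46 (1.24 to 1.73) and *G6pdx* with an interval of 1.04 to 1.52, with *Sqstm1* at 0.896 and *Txn1* at 0.855 lowest. Of 20 glutathione S-transferase genes 17 were above 1, with a median of 1.07 and a range at mean height 36 or more from *Gstm7* at 0.953 to *Gstt4* at 1.49.

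Chromatin genes lay slightly below the median gene or on it. Of 22 histone deacetylase, sirtuin and co-repressor genes 9 were above 1, and the median was 0.953. *Hdac1*, *Hdac2* and *Hdac3*, the nuclear deacetylases, stood at 0.951 (0.831 to 1.09), 0.930 (0.733 to 1.18) and 0.947 (0.840 to 1.07), and the deacetylase genes *Sirt4* and *Sirt2* were lowest of mean height 36 or more, at 0.876 (0.792 to 0.970) and 0.851 (0.747 to 0.970). The co-repressor gene *Ncor1* stood at 1.14 (0.985 to 1.32). Histone acetyltransferases and acetyl readers had a median of 0.992 over 24 genes, with *Ep300* at 1.09 (0.872 to 1.36), *Crebbp* at 1.05 (0.910 to 1.21), *Hat1* highest at 1.38 (1.12 to 1.70) and *Brd7* lowest at 0.762 (0.620 to 0.935). Histone and DNA methylation enzymes had a median of 0.994 over 37 genes. Histone cluster genes differed, with 51 of 66 above 1 and a median of 1.05, but 40 of the 66 share their values with a neighbour.

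Among transcription factor families, Hox and Klf genes stood higher. Of 35 Hox cluster genes 26 were above 1 with a median of 1.11, which was 1.13 over the 19 of mean height 36 or more. Of these 19, *Hoxd8* and *Hoxd12* were highest at 1.27 (1.1 to 1.48) and 1.26 (1.1 to 1.45), and *Hoxb13* and *Hoxb9* were lowest at 0.919 and 0.915. Of 16 Klf genes 11 were above 1 with a median of 1.12, which was 1.09 over the 12 of mean height 36 or more. These 12 ran between *Klf5* at 1.22 and *Klf16* at 0.921. AP-1 factor genes had a median of 1.01 over 20 genes, with *Atf7* at 1.37 and *Maf* at 1.34 at the top, Fox genes 0.994 over 39 and numbered Zfp zinc finger genes 0.986 over 328. In the p53 target list, which had a median of 1.05 over 27 genes, *Perp* and *Tnfrsf10b* stood at 1.40 and 1.35 and *Plk2* and *Ddb2* at 0.814 and 0.718 (0.639 to 0.807).

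Immune response genes had single members at both ends. The 22 inflammasome and DNA sensor genes had a median of 0.964, with 3 past the closer upper limit (13.6%, against 7.35% of all genes) and 6 past the lower (27.3%, against 11.1%). Among the 14 of mean height 36 or more, *Aim2* was highest and *Casp4* followed at 1.23, while *Ifi204* at 0.660 (0.472 to 0.924) and *Ifi205*, of the same family as *Aim2*, were lowest. The 34 interferon response genes had a median of 0.968, and *Ifih1*, an RNA sensor, and *Rsad2*, an antiviral enzyme, stood lowest at 0.693 (0.561 to 0.857) and 0.592 (0.483 to 0.726), against 1.13 for *Irf9* and 1.11 for *Isg20*, the highest of mean height 36 or more. Epithelial inflammatory mediators had a median of 0.994 over 39 genes, with the chemokine gene *Ccl20* at 1.34 (1.12 to 1.61) and *S100a8* at 1.31, and with *Nos2*, the inducible nitric oxide synthase, and *Il17c* both at 0.630. *Nos2* had 75.4 in lactate, 102 in vehicle and 46.0 in UK5099, and *Il17c* had 63.6, 85.8 and 39.7 in the same order. Defensin genes had a median of 1.17 over 13 genes at a median mean height of 29.3, and 3 of the 13 reached 36.

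Growth genes set a level of comparison. The 15 housekeeping genes had a median of 0.983, cell cycle and replication genes 1.0 over 45 genes, proteasome genes 1.0 over 39, mitochondrial ribosomal protein genes 1.0 over 75 and cytosolic ribosomal protein genes 0.987 over 80. Within the cell cycle list, *Mcm3*, a helicase subunit, was highest at 1.33 (1.1 to 1.62), and *Cdkn2a* and *Cdkn2b*, neighbouring inhibitor genes, were lowest at 0.727 (0.610 to 0.866) and 0.697 (0.592 to 0.821). Small nucleolar RNA genes, which are strong at a median mean height of 88.7, had 33 of 95 above 1 and a median of 0.929, but 74 of the 95 share their values with another gene. MicroRNA genes had a median of 0.984 over 332 genes. Chemosensory genes were weak and lower, with medians of 0.928 over 46 olfactory and 0.817 over 13 vomeronasal receptor genes, and the olfactory median was 1.0 over the 23 of mean height 36 or more. Ion channel families were also weak, with median mean heights of 28.8 in 12 sodium, 38.5 in 21 calcium and 36.2 in 75 potassium channel genes. Their medians were 0.807, 0.922 and 0.955 in the same order. Over members of mean height 36 or more they were 1.03 over 4, 0.910 over 13 and 0.991 over 39 genes.

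**Figure D5:**
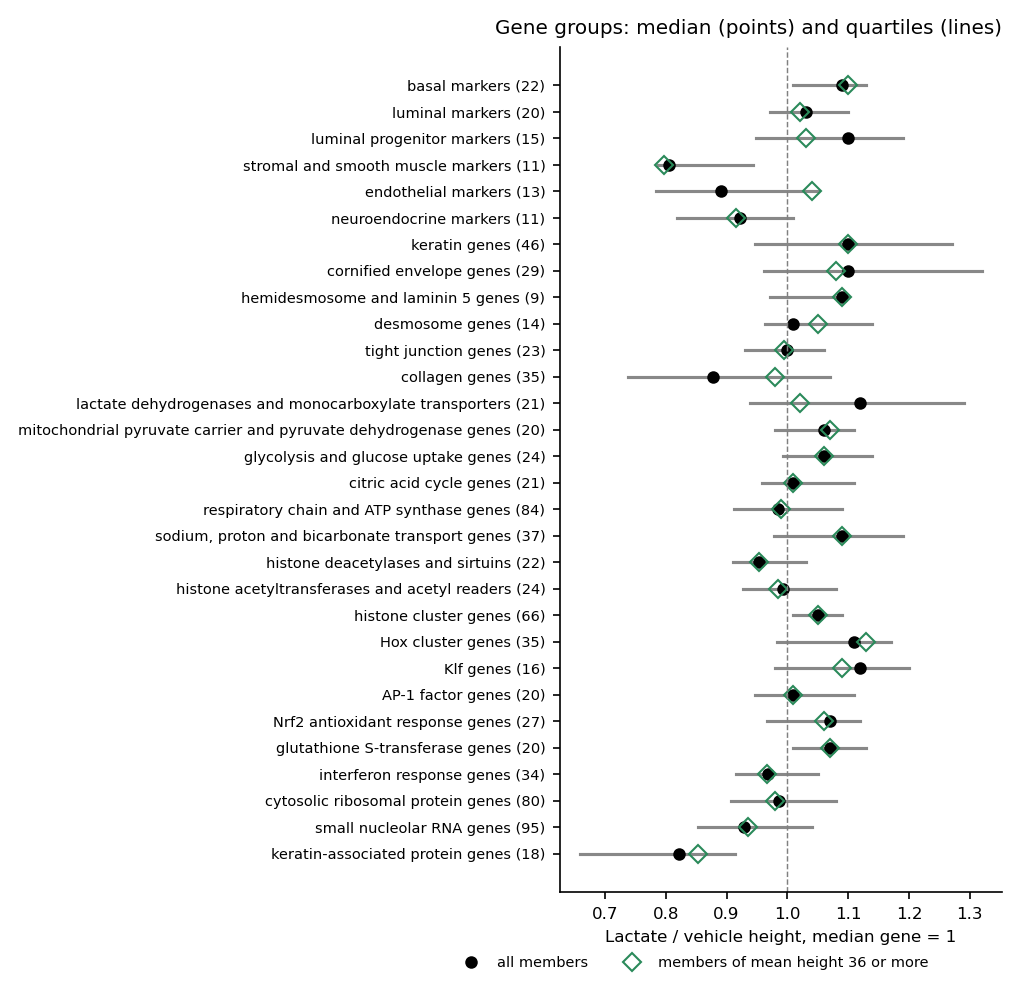
Scaled ratio (median gene at 1) of 30 gene groups, with the number of genes in brackets. Black points are medians over all members, grey lines run between the quartiles and green diamonds are medians over members of mean height 36 or more. Stromal markers at 0.806 and keratin-associated protein genes at 0.821 lie farthest to the left, and the diamonds of collagen and endothelial groups lie to the right of their points.

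By chromosome, the X stood above the autosomes. Autosomal medians ran between 0.983 and 1.02, and the 508 X-linked genes had a median of 1.05, which was 1.07 over the 288 of mean height 36 or more. Of the X-linked genes 3.94% were at 1.5 or more and 1.18% at 0.667 or less, against 1.75% and 3.89% of all genes. Their median height was 44.1 in lactate and 36 in vehicle. In UK5099, set against the same vehicle library, the X-linked median was also 1.05.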

How the data were processed

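ATAC-seq was done on 3 libraries, 1 each of organoids in 20 mM sodium lactate, in 10 µM UK5099 and in vehicle, grouped by the treatment in the sample labels. The study's methods state that frozen cells were sent to a sequencing company, which tagmented them, aligned read pairs with BWA, removed duplicates and ambiguous pairs, extended reads to 200 bases, stacked them in bins, called peaks per library without a control and dropped excluded regions. The submitters' notes name BWA, MACS3 and mm10, while the methods name an earlier MACS. A shift of reads for the transposase is not mentioned there. In the deposited table the authors gave 18890 genes a signal per library, the average peak height over a gene's merged regions, beside the count of merged regions, called-peak flags as deposited in a column of other text, and peak distances. Peaks of 1 further library in the text columns were not used. The signal is coverage and not a count of fragments, so no count model was run. Height times region number was a whole multiple of 1 step within 0.05 for 100% of genes in lactate and in vehicle, which gave stacked reads and relative depth.

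The ratio of lactate to vehicle height was taken per gene without a pseudocount and divided by its median. Limits were 1.5 with its inverse, 0.667, and 0.800 with its inverse. Intervals cover counting error only. Peaks were paired within 500 bases. Group members came from 44 lists of symbols and 30 name patterns. The members and lists were chosen with earlier results of these data known, and 2 patterns were narrowed after values were seen. Some genes that the rule names are not reported here. Genes were named by rule. In each of 3 region classes these are the 5 highest and 5 lowest of mean height 36 or more, with identical values taken once and predicted models last, and in each list described the 2 highest and 2 lowest at that height, beside 27 fixed genes. Of the genes, 2953 share all values with another gene. Neighbouring genes can share regions. Sequences came from RefSeq's GRCm38.p6, the same build as mm10, in windows of 200 bases. The 16 strings searched were those of AP-1 (TGANTCA), grainyhead (AACNNGTT), TEAD (ACATTCCA), Runx (TGTGGTTT), forkhead (TGTTTAC), Hox (CCAATAAA), Klf and Sp (GGGGCGGGG), Ets (CCGGAAGT), NF-Y (GCCAATNNG), the cAMP response element (TGACGTCA), nuclear receptors (ACANNNTGT), Twist (CAGCTG) and Sox (ACAATGG), and the longer motifs of p53, CTCF and Nrf2. The ratio and its interval were tried on simulated data that held only the counting error the interval assumes. That cannot show how well the interval covers variation between cultures. Python 3.11.15, numpy 2.4.6, scipy 1.17.1, pandas 2.3.3 and pysam 0.24.0 were used. Alternatives were a pseudocount of 5, genes of mean height 36 or more only, the deposited scaling, scaling to the same total, identical values taken once and other limits.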

Additional observations from a re-analysis of the deposited data

How the results depend on the processing

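The 331 higher and 735 lower genes were 183 and 510 with a pseudocount of 5, 87 and 171 when only genes of mean height 36 or more were kept and rescaled, 1146 and 336 on the deposited scale, 333 and 734 with heights scaled to the same total, and 303 and 668 with identical values taken once. At limits of 2 and 0.5 they were 67 and 195, and at limits of 1.5 and 0.5 the lower genes were 195. The ratio of promoter to distal medians stayed between 1.01 and 1.05 under every planned setting. Of 74 lists, 12 had a median of 1.1 or more or 0.909 or less. There were 7 such lists at mean height 36 or more, 63 on the deposited scale, 20 with members of 1 merged region only and 25 by the number of called peaks. On the deposited scale, which moves the median gene to 1.18, the medians of collagen (1.03), cadherin (1.06) and endothelial genes (1.05) and of genes with a peak called in neither library (1.0) came to 1 or above. At mean height 36 or more endothelial (1.03) and sodium channel genes (1.02) did so, and by called peaks stromal (1.09), endothelial (1.04) and keratin-associated protein genes (1.02) did so while defensin genes stood at 0.772. The cause was not tested. The share of lactate peaks with a vehicle partner was 76.9%, and 72.7% and 81.1% with windows of 200 and 1000 bases, which were chosen after seeing the data. No paired analysis was possible because each group had 1 library. With 1 library a side, culture-to-culture variation is not known, and the intervals are too narrow as a measure of it.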

Other observations

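Interleukin and interleukin receptor genes had a median scaled ratio of 0.995 over 67 genes, with 12 at 0.800 or less (17.9%, against 11.1% of all genes) and 8 at the inverse of that limit or more (11.9%, against 7.35%). Genes named here as ends of a list are so among members of mean height 36 or more. *Il20rb*, a receptor subunit of epithelial cells, had 55.8 in lactate and 31.3 in vehicle (1.52, 1.31 to 1.76), and *Il34*, a ligand of macrophage receptors, had 50 and 70.0 (0.608, 0.554 to 0.667) over 8 regions. Serpin genes had a median of 0.970 over 27 genes, with *Serpinb5*, the gene of maspin, highest at 1.18 (1.03 to 1.34) and *Serpinb9* lowest at 0.582 (0.471 to 0.719) among members of mean height 36 or more. In the hypoxia-inducible factor list, which had a median of 1.03 over 26 genes, the oxygen sensor genes *Egln3* and *Egln1* stood at opposite ends, at 1.23 (1.1 to 1.37) and 0.695 (0.590 to 0.818), and *Vhl*, which marks the factor for degradation, stood at 1.24 (1.03 to 1.48).

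Signalling pathways had medians near the median gene and members at both ends. Wnt pathway genes had a median of 0.987 over 53 genes, with the receptor gene *Fzd9* at 1.41 and *Wnt6* at 1.35 against *Wnt11* at 0.806 and *Fzd4* at 0.798. TGF-beta and BMP pathway genes had a median of 0.981 over 39 genes, with *Id1* (interval 1.11 to 1.41) and *Bmp7* (interval 1.12 to 1.39) highest, against *Smad4* at 0.757 (0.639 to 0.896) and *Skil* at 0.715 (0.641 to 0.797). Notch pathway genes had a median of 1.01 over 31 genes. In the EGF receptor family, *Errfi1*, a feedback inhibitor, stood at 1.28 (1.14 to 1.43) and *Egfr* at 1.21 (1.13 to 1.29).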
